A study of Rattus norvegicus with 4 samples.

Results

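The genes of the cadherin superfamily and of the catenins were examined in OLN93 cells with and without an edited Sox10 gene. Members were all gene symbols that begin with Cdh and a digit or with Pcdh, together with Ctnna1, Ctnna2, Ctnnb1, Ctnnd1, Ctnnd2 and Jup. This rule found 74 genes among the 17327 symbols of the count files, and 91 genes when the 26404 rows of the authors' deposited table were included. OLN93 is a rat cell line of oligodendroglial origin that became immortal spontaneously. The control group consisted of 2 libraries from Sox10-positive OLN93 cells, called biological replicates in the labels and clones in the methods. The Sox10-deficient group consisted of clones A and B, in which different guide RNAs had directed CRISPR/Cas9 to the Sox10 gene. All cells had been grown in the same serum-containing medium, and each library of the Sox10-deficient group stands for 1 clone.

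Cadherins are membrane proteins that bind the same kind of cadherin on a neighbouring cell in a calcium-dependent manner. The cytoplasmic tail of the classical cadherins binds β-catenin (Ctnnb1) or plakoglobin (Jup) and p120-catenin (Ctnnd1), and β-catenin links the complex through α-catenin (Ctnna1) to actin. β-Catenin that is not bound to cadherins also serves as the transcriptional effector of Wnt signals. Protocadherins form the largest branch of the superfamily, have other cytoplasmic tails, and mediate recognition between cells of the nervous system. N-cadherin (Cdh2) is the classical cadherin of neural progenitors and of migrating glial cells.

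Each library held between 60951 and 104017 deposited counts. Levels are given as CPM, the normalized count per M counts of a library. A gene with at most 3 counts was treated as being at the floor, which equals 29.0 to 48.2 CPM and reflects counting error only. A gene was called changed when it differed at least 2-fold between the groups, and the quasi-likelihood test of edgeR gave p values of at most 0.05, either unadjusted or after Benjamini-Hochberg adjustment. The libraries are separate samples by their labels, and the p-values measure only the spread between them. Sox10 had 28 (control 1) and 64 (control 2) counts, versus 0 in clone A and 14 in clone B. Clone B thus kept 29.7% of the mean control level of Sox10. Of 12 oligodendroglial marker genes, Mag was at 0 counts in all libraries. The summed level of the list was 2769 to 3051 CPM in the controls and 1769 to 1920 CPM in the clones. This list includes the edited gene Sox10, which had 449.7 and 619.5 CPM in the controls and 0 and 158.8 CPM in the clones. Part of the difference between the sums is therefore Sox10 itself. The 5 Schwann cell markers summed to 1133 to 1156 CPM in the controls and to 113 to 289 CPM in the clones. The 6 astrocyte markers summed to 271 to 450 CPM and 23.1 to 45.4 CPM, with Aqp4, Aldh1l1 and Slc1a3 at 0 counts throughout. For 5 neuronal markers the sums were 128 to 174 CPM and 45.4 to 104 CPM, with Rbfox3, Syt1 and Tubb3 at 0. For 4 microglial markers they were 64.2 to 135 CPM and 45.4 to 57.8 CPM, with Itgam and Cx3cr1 at 0. For 4 fibroblast markers they were 329 to 337 CPM and 136 to 289 CPM, with Col1a2, Dcn and Lum at 0. The 4 endothelial markers reached 64.2 CPM at most, and Pecam1, Kdr and VE-cadherin (Cdh5) were at 0 counts in all libraries. The part of these shifts in the results on cadherins was not tested. The strand option behind the counts is not stated, so that genes overlapping another gene are uncertain.

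Most cadherins and protocadherins had no counts in OLN93 cells at this depth. Of the 74 members in the count files, 58 had 0 counts in all 4 libraries and 16 had at least 1 count. Only 8 members had enough counts to be tested. These were N-cadherin (Cdh2), T-cadherin (Cdh13), the protocadherins Pcdhgc3, Pcdh7 and Pcdh9, and the catenins Ctnna1, Ctnnb1 and Ctnnd1. Of the remaining 8 members with counts, 7 did not exceed the floor in any library. The 10 listed type II cadherins were all at 0 counts. Of the more distant cadherins, Cdh23 had 2 counts in control 1 and 3 counts in clone B, Cdh17 had 1 count in clone A, and both were at 0 elsewhere.

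The authors' deposited table gives a mean read count per Ensembl gene over the libraries of both groups, which rests on many more reads than the deposited counts. For genes with a mean of at least 500, the average deposited count was 0.384% of this mean in the median of 5402 genes. By this deeper measure, 8 of the 77 listed members had a mean read count above 1000, whereas 53 had a mean of 10 or less. E-cadherin (Cdh1) and P-cadherin (Cdh3), the classical cadherins of epithelia, had means of 1 each. VE-cadherin, which holds endothelial cells together, had a mean of 4. Cdh11, a type II cadherin of mesenchymal cells, had a mean of 7, and Cdh19, a type II cadherin known from Schwann cell precursors, a mean of 2. N-cadherin with a mean of 14679 was the only type I cadherin above 10, and Cdh24 with 158 was the only type II cadherin above 10. The symbol of Cdh24 is not among those of the count files.

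**Figure D1:**
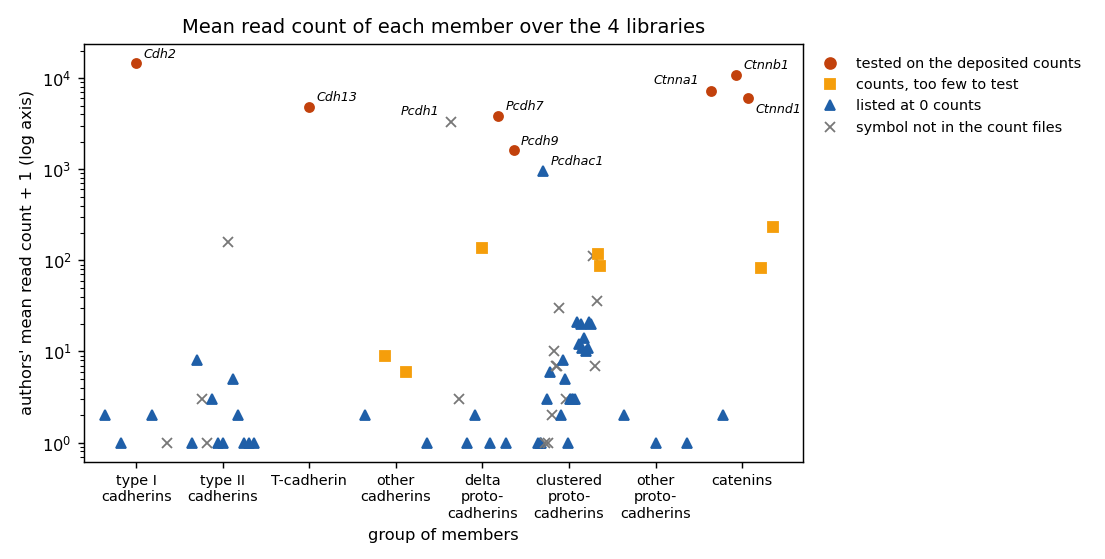
Mean read count of each member over the 4 libraries as the authors' deposited table gives it, plus 1, on a log axis (vertical), for each group of members (horizontal). Each symbol is 1 gene, and colours and shapes show whether the gene could be tested on the deposited counts. The 7 tested members with a mean in the table lie at 1629 or above, and most members lie at the bottom of the axis.

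By the unadjusted criterion, N-cadherin was lower in the Sox10-deficient clones. Cdh2, listed as ENSRNOG00000015602, had 45 (control 1) and 93 (control 2) counts, versus 38 (clone A) and 33 (clone B). These counts corresponded to 723 and 900 CPM in the controls and to 439 and 374 CPM in the clones. Both clones lay below both controls, and the clones retained 54.2% and 46.1% of the mean control level. The group means were 812 ± 126 CPM in the controls and 407 ± 46.1 CPM in the clones (SD, n = 2 each). This is a log2 fold change of -1.01 (standard error 0.29), with a 95% interval from -1.63 to -0.39. By edgeR, p was 0.00316 before and 0.0688 after adjustment, so that the decrease met the unadjusted criterion but missed the adjusted one. With a fold change of 2.01, N-cadherin lay at the border of the 2-fold criterion, and its log2 fold change was -0.85 without control 2 and -0.89 without clone B. It also fell just short of 2-fold with DESeq2 (-0.9977), without a filter (-0.98) and with at least 10 counts in every library (-0.99). Without control 1, the log2 fold change was -1.17. The adjusted p was 0.487 with DESeq2 and 0.0499 by edgeR when scaled by library totals alone.

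T-cadherin showed the largest decrease among the tested members. Cdh13, listed as ENSRNOG00000014371, encodes a cadherin that lacks a transmembrane segment and a cytoplasmic tail, is held in the membrane by a glycosylphosphatidylinositol anchor and therefore does not bind catenins. It had 25 (control 1) and 55 (control 2) counts, versus 7 (clone A) and 11 (clone B). In CPM, the controls had 402 and 532, and clones A and B had 80.9 and 125. The clones thus did not overlap with the controls and retained 17.3% and 26.7% of the mean control level. Their mean was 103 ± 31.0 CPM, and that of the controls was 467 ± 92.6 CPM (SD, n = 2 each). On the log2 scale the fold change was -2.18, with a standard error of 0.43 and a 95% interval from -3.08 to -1.29. T-cadherin was the sole member that passed the adjusted criterion (adjusted p = 0.00549 by edgeR). This call was lost without control 2 (log2 fold change -1.97, adjusted p = 0.286 by edgeR) and without clone A (log2 fold change -1.90, adjusted p = 0.0592 by edgeR). With DESeq2 the log2 fold change was likewise -2.18, but the adjusted p was 0.0544. T-cadherin is among the genes that the study itself selected on these samples, so that its direction here is not independent evidence.

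Counting the called members, 3 of the 8 tested members were lower by the unadjusted criterion, namely Cdh2, Cdh13 and Pcdhgc3, whereas the share of lower genes was 6.97% over all 2438 tested genes. None was higher, where 4.63% of all tested genes were higher. After adjustment by edgeR, 1 of 8 was lower and 0 were higher, against 2.5% and 1.11% of all tested genes. DESeq2 called 2 of the 8 lower and 0 higher without adjustment, and 0 in either direction after adjustment. Over all tested genes, DESeq2 called 4.22% lower and 2.79% higher without adjustment, and 1.15% and 0.328% after it. No tested member had a higher level with an unadjusted p of 0.05 or less in either tool, the lowest p among members with a higher level being 0.302 with edgeR and 0.503 with DESeq2, both for Ctnna1. Clones and controls did not overlap for 5 of the 8 members. In the clones 4 of these were lower and 1 was higher, against 21.5% and 21.6% of all tested genes. The median log2 fold change was -1.01 for the 5 tested cadherins and protocadherins, -0.27 for the 3 tested catenins and -0.0059 for all tested genes. With so few genes, the first 2 medians are the values of Cdh2 and Ctnnd1. Cdh13 and Pcdhgc3 lay below that of Cdh2, whereas Pcdh7 and Pcdh9 had 0.30 and -0.33.

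**Figure D2:**
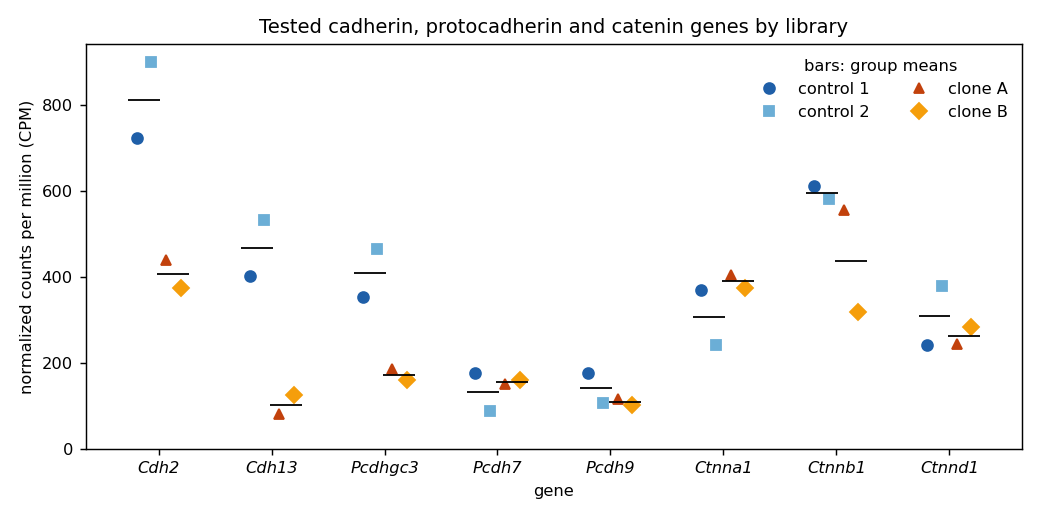
Normalized counts per M counts (CPM) (vertical, linear axis from 0) of the 8 tested members (horizontal) in each library. Points are single libraries, with controls in blue and Sox10-deficient clones in red or orange, and bars are group means of 2 libraries. Both clones lie below both controls for Cdh2, Cdh13, Pcdhgc3 and Ctnnb1 and above both controls for Ctnna1, whereas the groups overlap for Pcdh7, Pcdh9 and Ctnnd1.

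Most clustered protocadherins were at 0 counts, with Pcdhgc3 as the tested exception. The genes of the α, β and γ clusters lie in tandem, and single cells choose variable exons from them so that neighbouring cells carry different combinations. Pcdhgc3 belongs to the C-type genes of the γ cluster, which are expressed more uniformly than the other variable exons. Of the 39 clustered protocadherins in the count files, 35 had 0 counts in all libraries. Pcdhgc3 had 22 (control 1) and 48 (control 2) counts, versus 16 (clone A) and 14 (clone B). Its level was 353 and 465 CPM in the controls and 185 and 159 CPM in clones A and B. Both clones lay below both controls, at 45.2% and 38.8% of the mean control level. Mean levels were 409 ± 78.7 CPM for the controls and 172 ± 18.6 CPM for the clones (SD, n = 2 each). The estimated log2 fold change was -1.26, with a standard error of 0.39 and a 95% interval from -2.08 to -0.44. By edgeR, p was 0.00466 before and 0.0901 after adjustment. When 1 library was left out, the log2 fold change lay between -1.45 and -1.06. The adjusted p was 0.620 with DESeq2. By edgeR it was 0.188 without a filter and 0.0569 with at least 10 counts in every library.

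The counts of Pcdhgc3 are uncertain, because genes of the γ cluster share their last exons. In the RefSeq annotation of the rat assembly GRCr8, 12 of the 16 listed γ cluster genes end at the same position. It is not known how the reads of the shared exons were divided in the deposited counts. Pcdhgb7 had 1 count in each control and Pcdhgb8 had 2 counts in control 1, and both were at 0 in the other libraries. Pcdhac2, a C-type gene of the α cluster, had 0 and 8 control counts versus 3 (clone A) and 4 (clone B), which is too few for a comparison. Pcdhgc3 and Pcdhac2 are missing from the symbols of the authors' deposited table, where the γ cluster gene with the highest mean is Pcdhgb7 with 115 and the α cluster gene with the highest mean is Pcdhac1 with 960. Pcdhac1 had 0 counts in all 4 libraries of the count files.

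Promoters were taken from RefSeq for the newer assembly GRCr8, whereas reads were mapped to rn5. They span 250 bases before and 50 bases after the annotated start. An entry was found for 5 of the 8 tested members, but not for Cdh2, Cdh13 and Ctnna1. The promoter of Pcdhgc3 is shown as that of a member that was lower in both clones. It lies on the plus strand at chr18:29883995-29884294. The capitals mark the letters CAGGTG on the opposite strand, which are the E-box letters bound by ZEB and SNAIL repressors of cadherin genes.

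Pcdhgc3: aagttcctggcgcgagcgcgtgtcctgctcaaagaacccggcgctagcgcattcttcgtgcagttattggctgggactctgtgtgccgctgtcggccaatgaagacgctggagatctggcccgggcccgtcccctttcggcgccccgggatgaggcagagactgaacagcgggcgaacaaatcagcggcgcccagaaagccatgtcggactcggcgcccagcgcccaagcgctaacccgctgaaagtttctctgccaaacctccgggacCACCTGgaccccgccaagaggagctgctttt

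This match begins 20 bases after the annotated start. The letters ACAAAG and ACAATG, which SoxE proteins such as Sox10 can bind, do not occur in this window on either strand. All 3 words were searched on both strands, each on its own, and matches of different words may share letters. Of 33469 promoters of the same length, 18.8% hold CAGGTG, 18.8% hold ACAAAG, 13.2% hold ACAATG and 29.1% hold ACAAAG or ACAATG. The promoter of Pcdhgc3 contains 28 CG dinucleotides and 63.3% G and C, against medians of 7 and 51.7% over all promoters. The promoters of Pcdh7, Pcdh9 and Ctnnd1 hold none of the 3 words. The entry of Ctnnb1, which was not called, holds both SoxE words. ACAAAG begins 5 bases before the annotated start on the opposite strand, and ACAATG begins 4 bases after it. The letters ATG at the end of ACAATG are the start codon of β-catenin, so that this entry includes coding sequence. It is therefore not shown and not read as a promoter. These matches are descriptions of letters and not binding sites.

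Neither of the tested δ-protocadherins, Pcdh7 and Pcdh9, passed the test. Pcdh7 had 11 and 9 control counts versus 13 and 14 in clones A and B. These were 177 and 87.1 CPM against 150 and 159 CPM, so that both clones lay between the controls. The log2 fold change was 0.30 with a 95% interval from -0.91 to 1.5. Pcdh9 had 11 counts in each control and 10 and 9 counts in the clones. Its level was 177 and 107 CPM in the controls and 116 and 102 CPM in the clones. The log2 fold change was -0.33 with a 95% interval from -1.59 to 0.93, so that the intervals of both genes include a 2-fold change. In both cases, the sign turned when 1 control was left out, to -0.21 for Pcdh7 without control 2 and to 0.0082 for Pcdh9 without control 1. Pcdh18 had 0 counts in both controls and 2 counts in each clone, which is under the floor. Pcdh1 with a mean of 3293 in the authors' deposited table is not among the symbols of the count files.

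**Figure D3:**
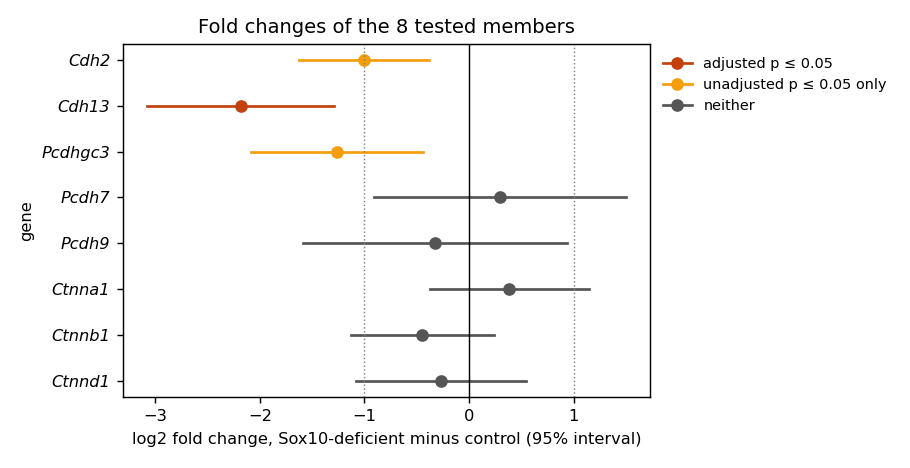
Log2 fold change (horizontal) of the Sox10-deficient clones against the controls for the 8 tested members (vertical), with 95% intervals from edgeR's quasi-likelihood fit of 2 libraries per group. Dotted lines mark 2-fold changes, red marks an adjusted and yellow only an unadjusted p within the threshold. The interval of Cdh13 lies between -3.08 and -1.29, and the intervals of the catenins include 0.

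None of the 3 tested catenins passed the test. β-Catenin (Ctnnb1, ENSRNOG00000019139) had 38 and 60 control counts versus 48 and 28 in clones A and B. Normalized to CPM, the controls had 610 and 581, clone A had 555 and clone B had 318. Clone A lay close to the controls with 93.2% of their mean, whereas clone B had 53.3%. The log2 fold change was -0.45 with a 95% interval from -1.13 to 0.24 (adjusted p = 0.605 by edgeR), and without clone B it was -0.094. αE-catenin (Ctnna1, ENSRNOG00000005796), which connects the complex to actin, had 23 and 25 control counts versus 35 and 33 in the clones. Its level was 369 and 242 CPM in the controls and 405 and 374 CPM in the clones, so that the groups just failed to overlap. The log2 fold change was 0.39 with a 95% interval from -0.38 to 1.15 (adjusted p = 0.730 by edgeR), and without control 2 it was 0.054. p120-Catenin (Ctnnd1, ENSRNOG00000030790), which stabilizes cadherins at the cell surface, had 15 and 39 control counts versus 21 and 25 in the clones. The corresponding levels were 241 and 378 CPM in the controls and 243 and 284 CPM in the clones. Its log2 fold change was -0.27 with a 95% interval from -1.08 to 0.55 (adjusted p = 0.850 by edgeR), and without control 2 it was 0.11. The intervals of Ctnnb1 and Ctnnd1 include a 2-fold decrease and that of Ctnna1 includes a 2-fold increase. Plakoglobin (Jup) had 3 counts in control 1 and 0 in the other libraries. Ctnnd2 had 1 count in clone A and 0 elsewhere, and the neuronal αN-catenin (Ctnna2) had 0 counts throughout. The means of Jup, Ctnnd2 and Ctnna2 in the authors' deposited table were 233, 81 and 1, the value of Ctnnd2 being the sum of 2 rows.

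Ratios of counts within a library do not depend on normalization, and they were therefore compared across libraries. Counts of Ctnna1, Ctnnb1 and Ctnnd1 together served as the reference. Since the lengths of the transcripts enter these shares, only shares of the same gene are compared. Cdh2 made up 37.2% (95% Wilson interval 29.1% to 46.1%) of its own and the catenin counts in control 1 and 42.9% (36.5% to 49.5%) in control 2. The share was 26.8% (20.2% to 34.6%) in clone A and 27.7% (20.5% to 36.4%) in clone B. For Cdh13, the shares were 24.8% (17.4% to 34.0%) and 30.7% (24.4% to 37.8%) in the controls. They were 6.31% (3.09% to 12.5%) in clone A and 11.3% (6.45% to 19.2%) in clone B. For Pcdhgc3, the controls had shares of 22.4% (15.3% to 31.7%) and 27.9% (21.7% to 35.0%). The shares were 13.3% (8.38% to 20.6%) in clone A and 14.0% (8.53% to 22.1%) in clone B. For Pcdhgc3, the interval of clone A overlaps that of control 1, and the interval of clone B overlaps those of both controls. For Cdh2, the intervals of both clones overlap that of control 1. For Cdh13, the interval of clone B overlaps that of control 1. The shares themselves were below those of both controls in both clones for all 3 genes. Pcdh7 and Pcdh9 together made up 22.4% and 13.9% of control counts and 18.1% and 21.1% of clone counts, and the groups overlapped. The counts of Cdh13 relative to those of Cdh13 and Cdh2 together were 35.7% and 37.2% in the controls. In clones A and B they were 15.6% (7.75% to 28.8%) and 25% (14.6% to 39.4%). The interval of control 1 was 25.5% to 47.4% and that of control 2 was 29.8% to 45.2%. Both clones were below both controls here as well. The interval of clone A overlaps that of control 1, and the interval of clone B overlaps both. Overlap of intervals is not a test of a difference, and a change in the ratio of T-cadherin to N-cadherin was not tested. All intervals cover counting error only.

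**Figure D4:**
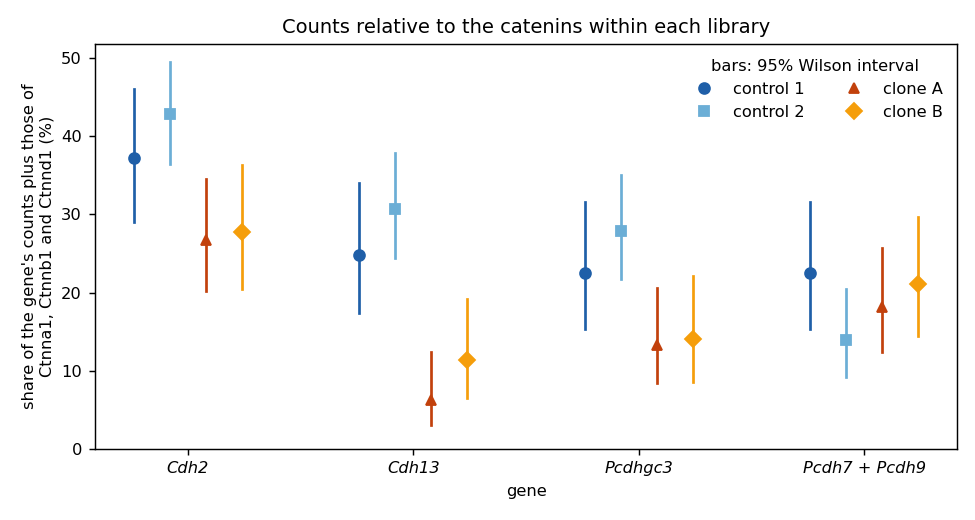
Share (percent, vertical) of the counts of Cdh2, Cdh13, Pcdhgc3 or Pcdh7 and Pcdh9 together (horizontal) in the sum of these counts and those of Ctnna1, Ctnnb1 and Ctnnd1 in the same library. Points are single libraries and bars are 95% Wilson intervals. The shares of Cdh13 are 24.8% and 30.7% in controls but 6.31% and 11.3% in clones, and those of Pcdh7 and Pcdh9 overlap between the groups.

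Over all members, the counts summed to 198 and 349 in controls 1 and 2 and to 195 (clone A) and 176 (clone B). This corresponded to 3180 and 3378 CPM in the controls and 2255 and 1996 CPM in the clones. The catenins alone summed to 1269 and 1200 CPM in the controls and 1214 and 975 CPM in the clones. The δ-protocadherins summed to 353 and 194 CPM against 289 and 283 CPM. The difference in the overall sum thus lay mainly with Cdh2, Cdh13 and Pcdhgc3. In bulk libraries, fewer cells with a transcript and less transcript per cell cannot be told apart.

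Other genes of adherens junctions and regulators of cadherins were taken from a list of 58 symbols. Of these, 46 symbols are in the count files and 21 genes could be tested. The list had a median log2 fold change of -0.13. Of its 21 tested genes, 13 were lower by any amount, against 50.5% of all tested genes. Among these 13 was Ctnnal1 (log2 fold change -0.17). Its deposited counts relative to the authors' mean were 163 times the median given above, so that they are uncertain. By the unadjusted criterion, 3 of 21 were lower, namely Plekha7, Zeb2 and Fat1, and 0 were higher, against 6.97% and 4.63% of all tested genes. After adjustment by edgeR, 2 were lower, Plekha7 and Zeb2, and 0 were higher, against 2.5% and 1.11%. DESeq2 without adjustment also called Plekha7, Zeb2 and Fat1 lower and 0 genes higher, and after adjustment it called Plekha7 alone. Actn1 had the lowest unadjusted p among the tested higher genes, 0.0193 by edgeR, but a change of less than 2-fold. Plekha7 had 0 counts in both clones and passed the filter through the controls alone. Twist1, with 0 counts in both controls, did not pass it. Without a filter, edgeR called Plekha7 lower and Twist1 higher after adjustment. Over all 10024 genes of that fit, 70 were lower and 44 higher.

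Plekha7 encodes a protein that binds p120-catenin at adherens junctions. Plekha7 had 11 and 16 control counts and 0 counts in both clones. At 177 and 155 CPM in the controls, its level in the clones was lower by at least 4.83-fold, measured against a floor of 3 counts per library. The lower of the limits from single control libraries was 4.51-fold. Its adjusted p by edgeR was 0.0147. Zeb2 encodes a zinc finger repressor that binds E-boxes in cadherin promoters and also acts in myelination. Zeb2 had 35 and 49 control counts versus 17 and 19 in clones A and B. Its level was 562 and 474 CPM in the controls and 197 and 215 CPM in the clones, with a log2 fold change of -1.31 and a standard error of 0.35. The adjusted p of Zeb2 was 0.0477 by edgeR and lay close to the threshold, and it rose to 0.0946 when no filter was applied. After adjustment, Plekha7 was not called without control 1, control 2 or clone B, and Zeb2 was not called when any single library was left out. The RefSeq promoter of Zeb2, on the minus strand at chr3:49754274-49754573 of GRCr8, is shown because it carries the SoxE word ACAAAG, marked in capitals, which begins 139 bases before the annotated start.

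Zeb2: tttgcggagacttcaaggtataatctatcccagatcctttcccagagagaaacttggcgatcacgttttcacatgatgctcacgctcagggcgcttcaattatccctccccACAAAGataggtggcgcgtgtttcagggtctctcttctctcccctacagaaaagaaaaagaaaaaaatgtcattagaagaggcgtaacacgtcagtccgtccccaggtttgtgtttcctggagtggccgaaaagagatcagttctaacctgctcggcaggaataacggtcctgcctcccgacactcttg

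Fat1 encodes a giant atypical cadherin with a long extracellular chain of cadherin repeats. Fat1 had 54 and 96 control counts versus 33 and 45 in the clones. Its level was 867 and 929 CPM in the controls and 382 and 510 CPM in clones A and B. The log2 fold change was -1.01 with a standard error of 0.29, and the adjusted p of 0.0607 by edgeR missed the threshold. Fat1 also lay at the 2-fold border, and its unadjusted call was lost without a filter (log2 fold change -0.98), with at least 10 counts in every library, without control 2 and without clone A. The RefSeq promoter of Fat1 holds CAGGTG on the opposite strand, beginning 1 base before the annotated start.

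None of the genes for actin-binding and scaffold proteins of junctions was called. Clones and controls did not overlap for 6 of the 21 tested genes, with 4 lower and 2 higher in the clones, against 21.5% lower and 21.6% higher over all tested genes. Neither count exceeds that background. Beside the 3 called genes these were Magi1, Actn1 and Pdlim5, which are named after their values were seen. The scaffold gene Magi1 had 7 and 15 control counts and 4 in each clone (log2 fold change -1.48, adjusted p = 0.414 by edgeR). α-Actinin-1 (Actn1) had 17 and 38 control counts versus 46 and 56 in the clones (log2 fold change 0.84, adjusted p = 0.210 by edgeR). Pdlim5 had 8 and 9 control counts and 18 in each clone (log2 fold change 0.97, adjusted p = 0.437 by edgeR). Vinculin (Vcl) had 22 and 44 control counts versus 32 and 33 in the clones, with a log2 fold change of -0.08. Tjp1, which encodes the scaffold protein ZO-1, had 42 and 39 control counts versus 34 and 46 in the clones, with a log2 fold change of -0.16.

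**Figure D5:**
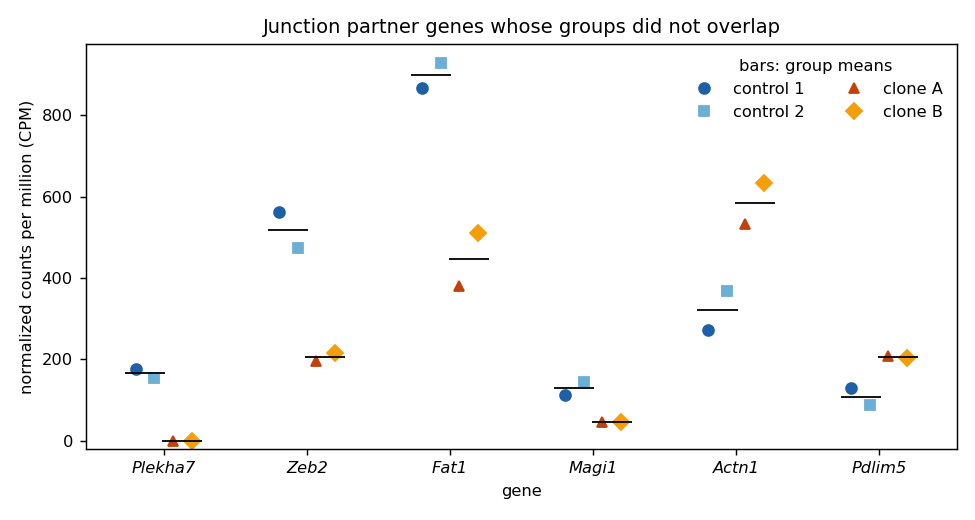
Normalized counts per M counts (CPM) (vertical, linear axis) of the 6 tested junction partner genes (horizontal) whose groups did not overlap. Points are single libraries and bars are group means of 2 libraries. Plekha7 is at 0 in both clones, and Actn1 and Pdlim5 are higher in both clones than in both controls.

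Zeb1, Snai1, Snai2 and Twist1 encode further transcription factors known to regulate cadherin genes. Their values are given side by side. Zeb1 had 3 and 13 control counts versus 8 and 23 in clones A and B, with a log2 fold change of 0.92 and an adjusted p of 0.587 by edgeR. Snai1 had 0 counts in the controls and 2 in each clone, and Snai2 had 0 and 1 control counts versus 2 and 1 in the clones, so that both lay under the floor. Twist1, a basic helix-loop-helix factor of mesenchymal cells, had 0 counts in both controls, but 14 (clone A) and 5 (clone B) in the clones. Twist1 had too few counts for the test and is named after its values were seen. It was at least 2.83-fold higher in the clones, a limit that was 1.47-fold from clone B alone. When no filter was applied, its adjusted p was 0.0139 by edgeR.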

How the data were processed

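RNA-Seq data of OLN93 cells, from 2 controls and from Sox10-deficient clones A and B, were used. The authors mapped reads onto rat genome rn5 with STAR 2.5.1, counted them per gene with HTSeq and deposited raw counts per gene symbol. The option for the strand and the annotation by symbol are not given in the sources used here. The authors' deposited table holds, per Ensembl gene, a mean read count after DESeq2 normalization, rounded to whole numbers and used here as a score. Its fold changes and p-values were not used.

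Testing was done with edgeR 4.0.16 under R 4.3.3. Genes were filtered by filterByExpr, scaled by TMM, and compared between the groups by glmQLFTest after glmQLFit, without further covariates. The Benjamini-Hochberg adjustment covered all 2438 tested genes. Standard errors and 95% intervals were derived from the F statistic. The procedure was also run on counts simulated with the same dispersion for every gene, which does not reproduce differences in spread between genes. Counts differed between libraries of a group by more than sampling noise, with a chi-square per degree of freedom of 2.19 for the controls and 2.20 for the clones. Genes named are Sox10, the tested members, members with at least 10 counts in total, the catenins, Cdh1, Cdh5, Cdh11 and Cdh19, up to 5 other members with the highest means in the authors' table, and called partner genes. Cdh3, Cdh17, Cdh23, Pcdh18, Pcdhgb7, Pcdhgb8, Vcl, Tjp1, Zeb1, Snai1, Snai2, Twist1, Fat4, Magi1, Actn1 and Pdlim5 were named after their values were seen. The members and lists were chosen with earlier results of these data known. As alternatives, DESeq2 1.42.0 replaced edgeR, its size factors or plain totals replaced TMM, the filter was dropped or set to 10 counts in each library, the replicate number was added as a block, and single libraries were left out. Promoters were read from the RefSeq table for GRCr8 in Python 3.11.15. Depth was between 60951 and 104017 counts per library.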

Additional observations from a re-analysis of the deposited data

Results flagged for a closer look

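Members with 0 counts in all libraries, or with symbols that the count files do not list, had a signal in the mean read counts of the authors' deposited table, which no comparison used. A mean above 3 was found for 24 such members, and it covers both groups and gives no direction. The highest were Pcdh1 with a mean of 3293 and Pcdhac1 with 960. Pcdh1 encodes a δ-protocadherin, and its symbol is not listed in the count files, whereas Pcdhac1 is listed there at 0 counts. Conversely, Pcdhac2 is absent from the authors' table but had 0 and 8 control counts and 3 and 4 counts in clones A and B. Whether the same reads stand under different symbols in both sources was not tested. Symbols that are not listed were also those of Cdh24 with a mean of 158, Pcdhgb2 with 111, Pcdhgb6 with 35, Pcdhb19 with 29, Pcdhb14 with 9, and Pcdhb15, Pcdhb17 and Pcdhgb5 with 6 each. Among genes at 0 counts, the γ cluster genes Pcdhga1 and Pcdhga8 had means of 20, Pcdhga9 and Pcdhga11 of 19, Pcdhga3 of 13, Pcdhga10 of 11, Pcdhga2 and Pcdhga7 of 10 and Pcdhga5 of 9. The other genes at 0 counts were Cdh11 and Pcdhb20 with means of 7, Pcdhb12 with 5, and Cdh5 and Pcdhb21 with 4. Which share of these means belongs to which group was not analysed here.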

How the results depend on the processing

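The decreases of Cdh2, Cdh13 and Pcdhgc3 kept their direction under every alternative in which they were tested. Over the fits of all 4 libraries, the log2 fold change ranged from -2.20 to -2.16 for Cdh13, from -1.02 to -0.98 for Cdh2 and from -1.28 to -1.24 for Pcdhgc3. Of 77 values of single members under alternatives, 68 kept direction and side of the adjusted threshold, 3 lost it, 3 gained it and 3 turned sign. When 1 library was left out, log2 fold changes ranged from 0.054 to 0.66 for Ctnna1 and from -0.89 to -0.094 for Ctnnb1. They ranged from -0.54 to 0.11 for Ctnnd1, from -0.21 to 0.79 for Pcdh7 and from -0.71 to 0.0082 for Pcdh9, turning sign without control 2, control 2 and control 1. By the unadjusted criterion, 1 member was lower with at least 10 counts in every library, where Cdh13 could not be tested. After adjustment, 0 members were lower with DESeq2 or that minimum, 2 with library totals alone, and 0 to 3 when 1 library was left out (0 without control 2 or clone A). For the partner genes, 1 was lower by the unadjusted criterion with that minimum, and 1 to 3 when 1 library was left out. After adjustment, 1 partner was lower with DESeq2, with its size factors, without a filter and with that minimum, 0 with the replicate block, and 0 to 1 when 1 library was left out. Without a filter, 2 partners were higher by the unadjusted criterion, Fat4 and Twist1, and 1 after adjustment, Twist1. Over all genes, 61 were lower and 27 higher after adjustment. These counts were 28 and 8 with DESeq2, 28 and 11 with the replicate block, 70 and 44 without a filter, 23 and 20 with at least 10 counts in every library, and 2 and 0 without control 2, where the call of Cdh13 was also lost. The unadjusted counts of 170 and 113 became 103 and 68 with DESeq2, 329 and 295 without a filter and 39 and 32 with at least 10 counts in every library. Fewer genes or libraries enter some of these fits, and the causes of the other shifts were not tested.

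Samples of the 2 groups share only a replicate number, and the deviations of same-numbered libraries from their group means had a correlation of 0.12 across genes. With the replicate block, 3 members were lower by the unadjusted criterion and 1 after adjustment, with an adjusted p of 0.0445 for Cdh13, and no call of a member changed. Genes under 29.0 to 48.2 CPM could not be read as expressed, and 2-fold changes of the catenins and of Pcdh7 and Pcdh9 lay inside the intervals.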
